A study of Homo sapiens with 5 samples.

Results

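The genes examined here are 10 neighbours of FAM53C on the long arm of human chromosome 5, in band 5q31. They were chosen by symbol and position, with earlier results of these data known: KIF20A, CDC23, GFRA3 and CDC25C on the side before FAM53C in chromosome order, and KDM3B, REEP2, EGR1, ETF1, HSPA9 and CTNNA1 on the side after it. All 10 have a row among the 64252 gene identifiers of the count table, and 9 had enough counts to be tested, as did 15341 genes in all. The RNA came from RPE-1 cells, a human retinal pigment epithelial line immortalized with telomerase. Cells of wild-type label received a negative control siRNA, titled on-target control (siCtrl, 3 libraries). Knock-down cells received a pool of siRNAs against FAM53C (siFAM53C, 2 libraries). Both were given at 5 µM by the labels. RNA was taken at 48 hr after transfection and sequenced from the polyadenylated fraction. All libraries are of 1 cell line, and the siRNAs were given as 1 pool, so that single siRNAs were not separated. Nothing in the labels says that the libraries of a condition came from separate cultures, and p-values then measure only the spread between these libraries.

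An siRNA is loaded into an Argonaute complex and directs the cleavage of mature transcripts that it pairs with, in the cytoplasm. It can also lower transcripts that pair only with its seed, the bases near its 5' end, as a microRNA does. The neighbours of the targeted gene are therefore read here by position, as genes that share its chromosomal surroundings and not its transcript. The region is lost on 1 chromosome copy in some myeloid leukemias and myelodysplastic syndromes, and several of its genes have been studied for that reason. Its genes have unrelated roles: KIF20A, CDC23 and CDC25C act in cell division, EGR1 is an immediate-early transcription factor, ETF1 ends translation, HSPA9 folds proteins in mitochondria, CTNNA1 anchors cadherins to actin, KDM3B is a histone demethylase, REEP2 shapes the endoplasmic reticulum and GFRA3 is a neuronal growth factor receptor.

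The members span 0.76 Mb, from base 138178719 to base 138935034 of chromosome 5 (GRCh38, GENCODE release 44). FAM53C (ENSG00000120709, plus strand, 138331935 to 138349729) lies inside this stretch. The gene nearest to it is CDC25C, on the opposite strand, whose body overlaps that of FAM53C, with 293 exon bases in common. KDM3B follows on the same strand after a gap of 2.96 kb. The other gaps between gene bodies are 57.3 kb to GFRA3, 89.3 kb to REEP2, 116 kb to EGR1, 119 kb to CDC23, 144 kb to KIF20A, 156 kb to ETF1, 204 kb to HSPA9 and 261 kb to CTNNA1. Exon bases shared with a gene on the opposite strand number 704 in FAM53C, 520 in CTNNA1, 206 in KIF20A and 74 in CDC23. Alignment was set to reverse strandedness, but the strand setting of the counting is not given in the sources used here, and if it did not use strand, reads on these bases could not be assigned to 1 gene. In HSPA9, 138 exon bases are shared with small nucleolar RNA genes on its own strand.

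The libraries held from 19260124 to 25615415 counts on genes. A principal component analysis of log2 CPM set the libraries apart on its leading axis (39.8% of the variance), where siCtrl replicate 3 (33.7) and siFAM53C replicate 2 (44.9) lay apart from siCtrl replicates 1 and 2 (-31.5 and -47.4), with siFAM53C replicate 1 (0.264) in between. Taken against the mean of its own condition, siFAM53C replicate 1 falls on the side of siCtrl replicates 1 and 2. With 2 siFAM53C libraries, this rule puts 1 on each side whatever their values. Differences within each side of this split (siFAM53C replicate 1 against siCtrl replicates 1 and 2, then siFAM53C replicate 2 against siCtrl replicate 3), and a fit with a term for it that was chosen after seeing the data, are given where they touch a result. Of 10 RPE-1 markers, the keratins KRT8 and KRT18, vimentin (VIM), MITF and OTX2 were present in every library, and the pigment epithelium genes RPE65, RLBP1, BEST1 and TYR were at 0 or under 1 CPM. Among markers of other cell types, CD3E, HBB, HBA1, CDH5, ALB, COL2A1 and SOX10 were at 0 in all libraries, and the summed level of the marker list was 3.03 to 6.65 CPM in siCtrl and 3.89 to 5.35 CPM in siFAM53C, most of it TUBB3.

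FAM53C itself was lower in both siFAM53C libraries. Its CPM, the share of a library's counts on the usual CPM scale after TMM scaling, was 60.9, 59.7 and 57.6 in siCtrl replicates 1 to 3 and 14.2 and 22.3 in siFAM53C replicates 1 and 2. The conditions did not overlap. The log2 fold change was -1.71 (SE 0.19, edgeR adjusted p = 0.003625 after Benjamini-Hochberg adjustment of its quasi-likelihood test), which is 30.7% of the control level.

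Of the 9 neighbours tested, 1 was lower in siFAM53C (CDC23) and 0 were higher by edgeR, at an adjusted p under 0.05. At an unadjusted p under 0.05, 1 was lower (CDC23) and 1 higher (REEP2), where 10.5% and 6.61% of all tested genes were. DESeq2 called the same 2 genes at an adjusted p. Over all genes tested with edgeR, 3.47% were lower and 0.489% higher, and with DESeq2 7.83% and 2.56%. A single call among 9 genes is too few to set against these shares. Among the neighbours, 7 log2 fold changes were below 0 and 2 above, where 7391 of all 15341 tested genes were below 0. Their median was -0.16, and that of all tested genes was 0.02. The median size without regard to sign was 0.26, and 0.24 over all tested genes. In CDC23, ETF1 and CTNNA1 both siFAM53C libraries lay under all 3 controls, and in REEP2 over them. This pattern was seen in 18.8% (below) and 16.7% (above) of all tested genes. The genes nearest to FAM53C, CDC25C (-0.43) and KDM3B (0.00), were not called, and the called gene, CDC23, lies beyond both CDC25C and GFRA3.

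**Figure D1:**
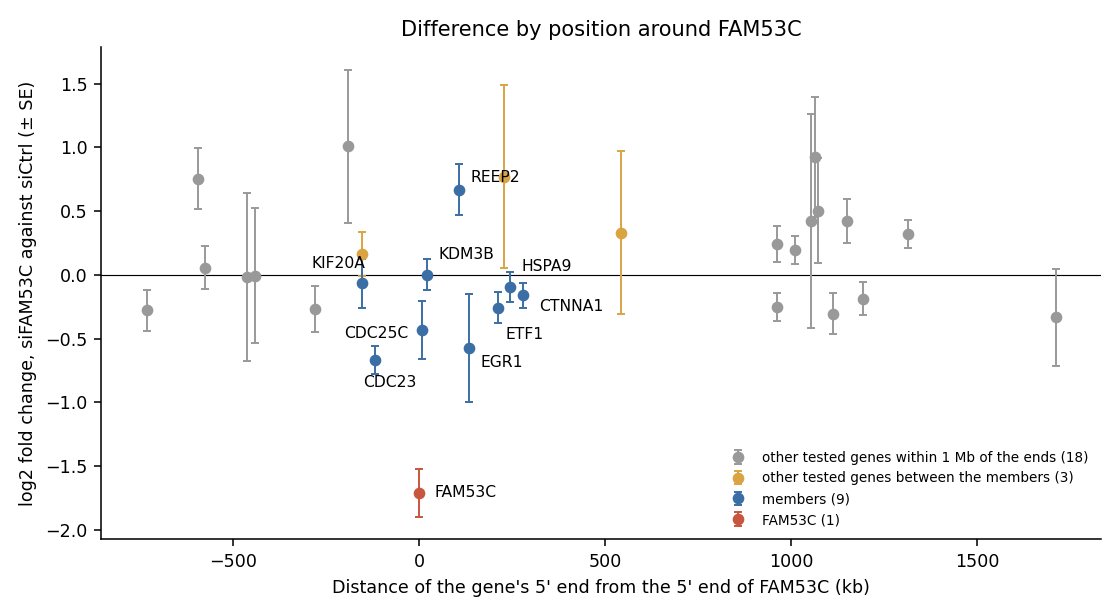
Log2 fold change (siFAM53C against siCtrl, edgeR, bars ± SE) of each tested gene, by the distance of its 5' end from that of FAM53C in kb. FAM53C stands alone at -1.71; of the neighbours CDC23 is the lowest (-0.67) and REEP2 the highest (0.67), and KDM3B, close to FAM53C, lies at 0.00.

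CDC23 (ENSG00000094880, minus strand, 138187650 to 138213343) encodes a subunit of the anaphase-promoting complex (APC/C), the ubiquitin ligase that marks cyclins and securin for destruction in mitosis and G1. It had 56.4, 56.1 and 56.0 CPM in siCtrl replicates 1 to 3 and 36.7 and 34.0 CPM in siFAM53C replicates 1 and 2. The control libraries were nearly the same, with an SD of 0.231 CPM where counting error alone gives 1.55 to 1.71 CPM per library, and both siFAM53C libraries were well below them. The mean fell from 56.2 ± 0.231 (SD, n = 3) to 35.3 ± 1.91 (SD, n = 2) CPM, a log2 fold change of -0.67 (SE 0.11, edgeR adjusted p = 0.01592), or 62.9% of control. Within the sides of the library split it was -0.62 and -0.72. The value stayed between -0.73 and -0.60 in every alternative, and the call was lost without siCtrl replicate 1 (edgeR adjusted p = 0.08603), siCtrl replicate 2 (0.08944), siFAM53C replicate 1 (0.1083) or siFAM53C replicate 2 (0.159).

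The other APC/C subunits and activators were taken as a list of 15 genes, all tested. Of these, 2 were lower and 0 higher (3 lower and 0 higher at an unadjusted p), with a median log2 fold change of -0.03. The lower genes were CDC27 (-0.53, SE 0.11, edgeR adjusted p = 0.04036), a scaffold subunit built of the same kind of repeats as CDC23, and ANAPC13 (-0.73, SE 0.16, edgeR adjusted p = 0.0492), a small subunit that binds them. CDC27 went from 181 ± 14 (SD, n = 3) to 126 ± 0.895 (SD, n = 2) CPM, and ANAPC13 from 70.0 ± 11.5 (SD, n = 3) to 42.2 ± 4.29 (SD, n = 2) CPM. Both were near the threshold: neither was called with total counts in place of TMM factors, without robust estimation, or when siCtrl replicate 1, siCtrl replicate 2 or either siFAM53C library was left out. ANAPC13 was also lost with limma-voom, with RLE size factors and with the CPM filter, and was called in 6 of 15 alternatives. The other 13 genes of the list did not pass.

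The transcript of CDC23 also shares a short sequence with that of FAM53C. GACAAGA, a heptamer picked in earlier work because genes that hold it had lower values in these same counts, occurs in the longest annotated 3' UTR of 11.6% of 12075 tested genes. Among the 9 tested neighbours it occurs in CDC23 and ETF1, once in each, and it also occurs once in FAM53C. The 30 bases around each site are shown because they set the called neighbour beside the targeted gene, with the heptamer in capitals. They were read from the GENCODE release 44 transcripts, and their positions on GRCh38 are chr5:138347127-138347156 (plus strand) for FAM53C, chr5:138188172-138188201 (minus strand) for CDC23 and chr5:138506445-138506474 (minus strand) for ETF1.
FAM53C: agactggccggGACAAGAtaaacggagctg
CDC23: gtgattatacaGACAAGAataaactcactt
ETF1: tgatgtgatatGACAAGAccagagaaattg

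The site begins at base 179 of the 2770 bases of the FAM53C 3' UTR, base 788 of 1328 in CDC23 and base 1842 of 2210 in ETF1. The 7 tested neighbours without the heptamer had log2 fold changes from -0.57 (EGR1) to 0.67 (REEP2), none called, and of those with it CDC23 was called and ETF1 was not. Of the 85 tested partner genes described with the members, 8 hold the heptamer, and none of the 5 that were lower does, CDC27 and ANAPC13 among them. Over all tested genes with a 3' UTR, 15.1% of 1399 holding it (FAM53C left out) were lower. Of the 10675 without it, 2.92% were lower. The neighbours and the 5 lower partner genes are too few to set against these shares. Since the heptamer was picked on these counts, its presence and these shares support nothing by themselves. The sequences of the siRNAs are not given in the sources used here, and the part of this heptamer in the value of CDC23 was not tested.

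KIF20A (ENSG00000112984, plus strand, 138178719 to 138187723) is a kinesin of the central spindle that is needed for cytokinesis, and its 3' end meets that of CDC23. Its CPM was 185, 166 and 248 in siCtrl replicates 1 to 3 and 168 and 213 in siFAM53C replicates 1 and 2. The conditions overlapped, and the highest library of each condition was the one on the high side of the library split. The fitted difference was -0.07 (SE 0.19, edgeR adjusted p = 0.906). Its sign turned without siCtrl replicate 3 (0.13), without siFAM53C replicate 1 (0.086) and with total counts (0.00049).

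CDC25C (ENSG00000158402, minus strand, 138285269 to 138338355) is the phosphatase that removes the inhibitory phosphates from CDK1 at the entry into mitosis. It had 14.4, 17.0 and 22.0 CPM in siCtrl and 11.4 and 15 CPM in siFAM53C. The siFAM53C libraries were low on their own side of the split, but siFAM53C replicate 2 overlapped siCtrl replicate 1. On the log2 scale the difference was -0.43 (SE 0.23, edgeR adjusted p = 0.3939), with -0.45 and -0.55 within the sides. With the term for the split, chosen after seeing the data, it was called lower (-0.50, edgeR adjusted p = 0.03036). In that fit 10.7% of all genes were lower and 6.76% higher, against 3 lower and 1 higher of the 9 neighbours.

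Both genes were set beside other genes of mitosis. A list of 19 of these had a median log2 fold change of -0.14, with 18 values below 0. Over all tested genes, 7391 of 15341 values were below 0. In the list 0 were lower and 0 higher (2 lower and 0 higher at an unadjusted p). The most abundant per length were UBE2C (-0.13, SE 0.16, edgeR adjusted p = 0.7674), the ubiquitin-conjugating enzyme of the APC/C, and PLK1 (-0.26, SE 0.13, edgeR adjusted p = 0.3735), a mitotic kinase. With the term for the split, 8 of the 19 were lower and 0 higher. In bulk RNA, fewer cells of a type and less RNA per cell cannot be told apart, and this holds for the share of cells in mitosis.

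The start sites of the neighbours were searched for motifs known from cell cycle promoters. RefSeq windows of 250 bases before and 50 after each start (GRCh38.p14) were at hand for all 10 members, 18 windows with FAM53C, and both strands were searched. CCAAT, the box bound by NF-Y, occurs 2 times before the start of KIF20A and 3 times before that of CDC23. It also occurs before starts of CDC25C, KDM3B, ETF1 and CTNNA1, and in 34.6% of all 34943 windows. TTTGAA, the cell cycle genes homology region (CHR) read by the DREAM and MuvB complexes, begins 30 bases before a start of CDC25C, occurs in windows of EGR1 and CTNNA1 too, and is in 15.2% of all windows. TTCCCGC, an E2F site, occurs before CDC23 and before the distal starts of CDC25C, and in 6.54% of windows. The window of KIF20A holds neither TTTGAA nor TTCCCGC. Stretches of CDC23 (chr5:138213344-138213443, minus strand), the called gene, and CDC25C (chr5:138331815-138331844, minus strand), the gene that overlaps FAM53C, are shown. The second overlaps an annotated exon of CDC25C itself. CCAAT or its reverse complement is in capitals in the first and the CHR is in capitals in the second.
CDC23: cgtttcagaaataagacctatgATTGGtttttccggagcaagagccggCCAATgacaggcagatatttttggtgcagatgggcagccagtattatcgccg
CDC25C: tggcggaaggTTTGAAtggtcaacgcctgc

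**Figure D2:**
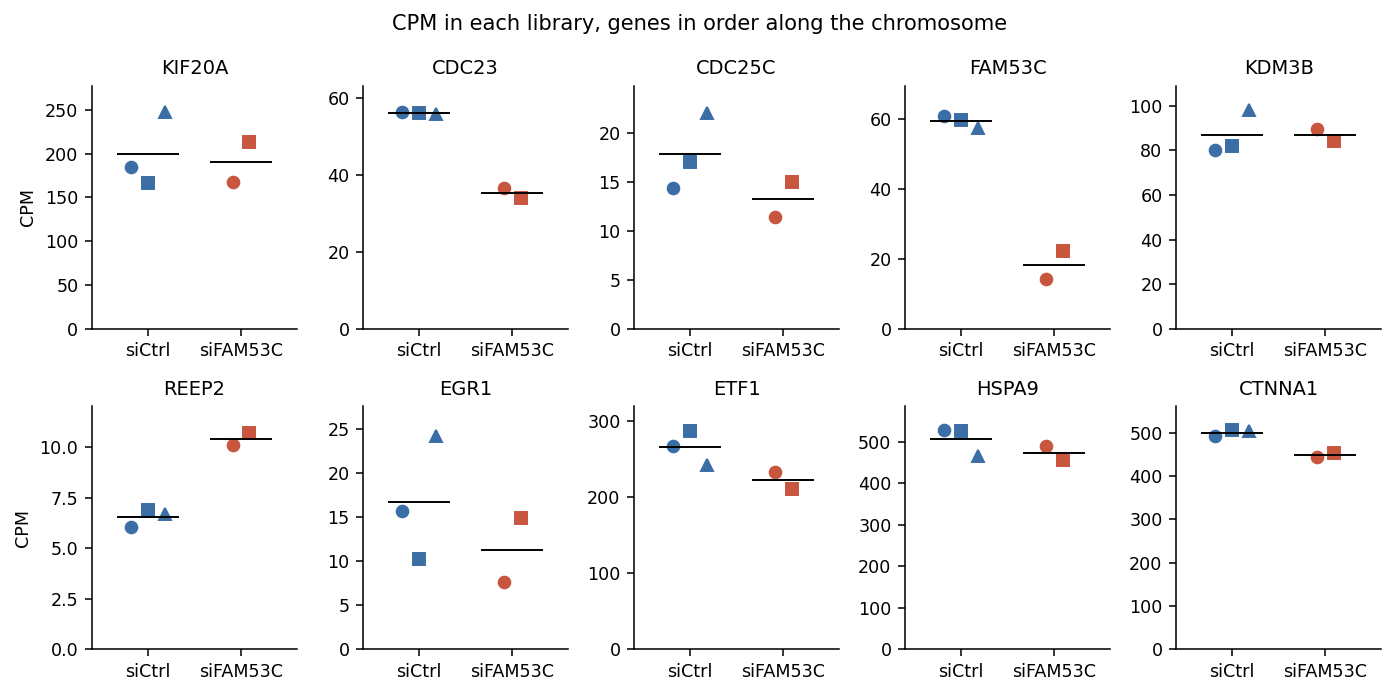
CPM (vertical axes, each from 0) of the 9 detected neighbours and FAM53C in the 3 siCtrl libraries (blue) and 2 siFAM53C libraries (red); circles, squares and triangles are replicates 1, 2 and 3, and lines are means. CDC23, ETF1 and CTNNA1 are lower and REEP2 higher in both siFAM53C libraries than in every siCtrl library, and the other 5 neighbours overlap.

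KDM3B (ENSG00000120733, plus strand, 138352685 to 138437028) demethylates lysine 9 of histone H3 and is the next gene downstream of FAM53C on the same strand. It had 80.0, 81.9 and 98.1 CPM in siCtrl and 89.6 and 84.1 CPM in siFAM53C. Both siFAM53C libraries lay within the range of the controls. The means were 86.7 ± 9.96 (SD, n = 3) and 86.8 ± 3.89 (SD, n = 2) CPM, with a log2 fold change of 0.00 (SE 0.12, edgeR adjusted p = 0.9955) and values from -0.05 to 0.11 over the alternatives. A list of 8 other H3K9 demethylases, all tested, had 0 lower and 0 higher (0 lower and 1 higher at an unadjusted p) and a median of 0.05. Its most abundant genes were KDM1A (-0.12, SE 0.11) and JMJD1C (0.08, SE 0.12), the latter of the same family as KDM3B.

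REEP2 (ENSG00000132563, plus strand, 138439057 to 138446969), a receptor expression-enhancing protein of the endoplasmic reticulum that is best known from neurons, was the scarcest of the detected neighbours. It had 143, 132 and 128 counts in siCtrl and 267 and 253 in siFAM53C, which is 6.07, 6.91 and 6.71 CPM against 10.1 and 10.7 CPM. Both siFAM53C libraries were above all controls. The log2 fold change was 0.67 (SE 0.20, edgeR adjusted p = 0.1354), with 0.63 and 0.67 within the sides of the split, and it did not pass the threshold. It did with DESeq2 (0.67, adjusted p = 0.0313) and in the fit that holds a split term (0.66, edgeR adjusted p = 0.03193). Over the alternatives the value ranged from 0.61 to 0.74.

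The other REEP genes were listed with the atlastins, which work with them in shaping tubules of the endoplasmic reticulum. Of 8 genes, 7 were tested (6 below 0 and 1 above), with 1 lower and 0 higher (3 lower and 0 higher at an unadjusted p) and a median log2 fold change of -0.35. The lower gene was ATL2, an atlastin GTPase, from 54.6 ± 6.60 (SD, n = 3) to 35.3 ± 0.347 (SD, n = 2) CPM (-0.63, SE 0.13, edgeR adjusted p = 0.04469). It was not called with limma-voom, with total counts, without robust estimation, or when siCtrl replicate 1, siCtrl replicate 2 or either siFAM53C library was left out.

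EGR1 (ENSG00000120738, plus strand, 138465479 to 138469303) is a zinc finger factor that serum and stress induce within minutes. Its CPM was 15.7, 10.2 and 24.2 in siCtrl and 7.63 and 14.9 in siFAM53C. Its spread was the widest of the neighbours relative to its mean, and the conditions overlapped. Its log2 fold change was -0.57 (SE 0.42, edgeR adjusted p = 0.5736). The values within the sides were -0.73 and -0.70. EGR1 was called lower once a term for the split, chosen after seeing the data, was in the fit (-0.74, edgeR adjusted p = 0.01112). Leaving out siFAM53C replicate 1 gave -0.18 and leaving out siFAM53C replicate 2 gave -1.13, neither called.

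EGR1 was set beside other immediate-early genes. Of 14 genes, 12 were tested (5 below 0 and 7 above), with 0 lower and 0 higher (1 lower and 4 higher at an unadjusted p) and a median of 0.29. The most abundant were FOSL1, an AP-1 subunit, with 559 ± 50.1 (SD, n = 3) and 803 ± 14.5 (SD, n = 2) CPM (0.52, SE 0.12, edgeR adjusted p = 0.05863), and JUN (-0.16, SE 0.20, edgeR adjusted p = 0.7611). FOSL1 was called higher with DESeq2 (0.53, adjusted p = 0.0005789), with total counts, unfiltered, without siCtrl replicate 3 and with the term for the split. It was not called with limma-voom, with RLE size factors or when any other library was left out. The CArG box, the site of serum response factor, occurs 2 times before the start of EGR1. It occurs 1 time before the RefSeq start of FAM53C (base 138338266), and in 1.3% of all windows. That start lies inside the gene body of FAM53C given above. These stretches of EGR1 (chr5:138465359-138465478, plus strand) and FAM53C (chr5:138338221-138338250, plus strand) are shown since the motif is rare and both windows hold it, with the box in capitals. The FAM53C stretch overlaps annotated exons of FAM53C and CDC25C.
EGR1: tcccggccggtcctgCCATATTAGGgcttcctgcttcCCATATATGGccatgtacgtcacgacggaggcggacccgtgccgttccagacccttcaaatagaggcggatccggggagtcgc
FAM53C: cgcgccagcgCCTTTTAAGGgcaccgtggg

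The remaining detected neighbours, ETF1, HSPA9 and CTNNA1, are abundant genes at the far end of the stretch, and all had small negative values. ETF1 (ENSG00000120705, minus strand, 138506095 to 138543236) encodes eRF1, the release factor that reads stop codons. It had 267, 286 and 242 CPM in siCtrl and 233 and 211 CPM in siFAM53C. Both siFAM53C libraries were below all controls, by a small margin. The log2 fold change was -0.26 (SE 0.12, edgeR adjusted p = 0.3248), with -0.25 and -0.20 within the sides. Of 6 other genes of translation termination and ribosome rescue, 0 were lower and 0 higher (1 lower and 0 higher at an unadjusted p), with a median of -0.11. The most abundant were ABCE1 (-0.36, SE 0.12), which splits ribosomes after termination, and GSPT1 (-0.15, SE 0.11), the partner of eRF1.

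HSPA9 (ENSG00000113013, minus strand, 138553756 to 138575675) encodes mortalin, the Hsp70 of the mitochondrial matrix. It had 528, 525 and 465 CPM in siCtrl and 490 and 457 CPM in siFAM53C. The conditions overlapped, with siCtrl replicate 3 low among the controls. The fitted log2 fold change was -0.09 (SE 0.12, edgeR adjusted p = 0.7582). Of 10 other mitochondrial chaperones and proteases, 9 were tested, with 1 lower and 0 higher (1 lower and 0 higher at an unadjusted p) and a median of 0.01. The lower gene was GRPEL2, a nucleotide exchange factor for mortalin, from 30.3 ± 1.83 (SD, n = 3) to 18.9 ± 1.53 (SD, n = 2) CPM (-0.67, SE 0.14, edgeR adjusted p = 0.04009). It was not called with total counts, or when siCtrl replicate 1, siCtrl replicate 2 or either siFAM53C library was left out.

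CTNNA1 (ENSG00000044115, plus strand, 138610967 to 138935034) encodes alpha-catenin, which joins the cadherin and beta-catenin complex to actin filaments. It had 491, 506 and 503 CPM in siCtrl and 443 and 452 CPM in siFAM53C. Both siFAM53C libraries were below all controls, and the spread within a condition was small. The means were 500 ± 7.60 (SD, n = 3) and 447 ± 6.30 (SD, n = 2) CPM, with a log2 fold change of -0.16 (SE 0.10, edgeR adjusted p = 0.4954) and -0.17 and -0.16 within the sides. Of 10 other genes of the cadherin and catenin complex, 6 were tested, with 1 lower and 0 higher (3 lower and 1 higher at an unadjusted p) and a median of -0.24. The lower gene was CTNNB1, beta-catenin, from 342 ± 30.2 (SD, n = 3) to 195 ± 5.86 (SD, n = 2) CPM (-0.81, SE 0.12, edgeR adjusted p = 0.01151). It was not called when siCtrl replicate 1, siCtrl replicate 2 or either siFAM53C library was left out.

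**Figure D3:**
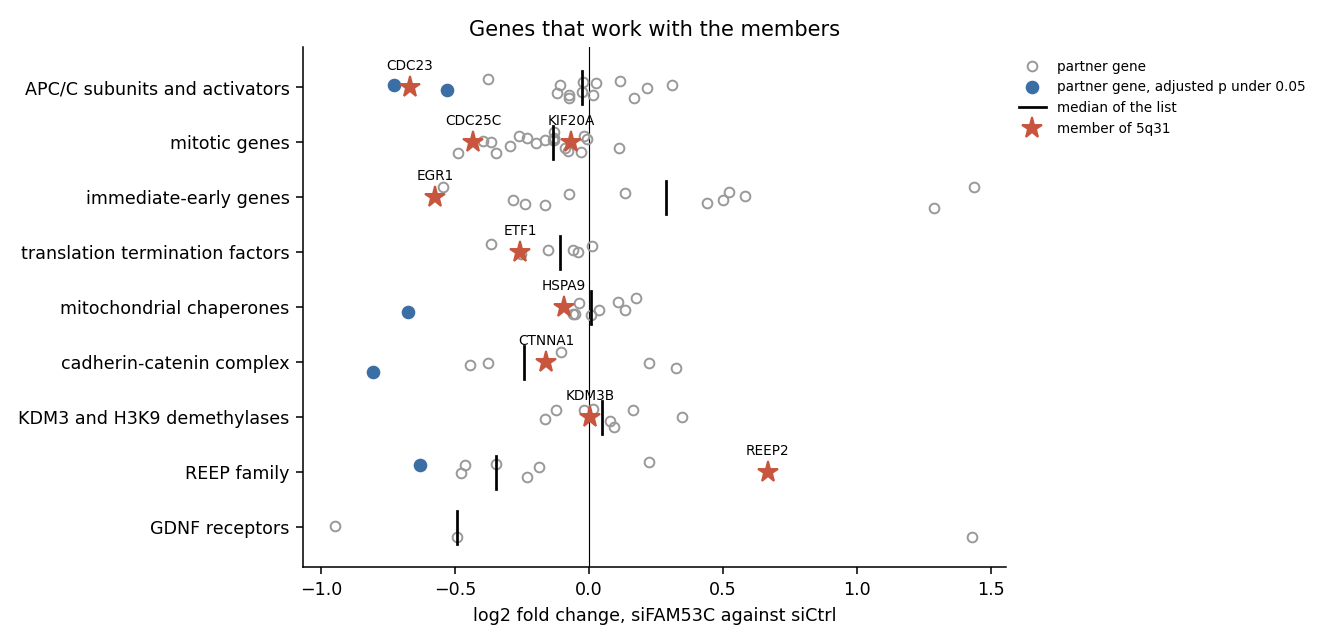
Log2 fold changes (siFAM53C against siCtrl, horizontal axis) of genes that work with each neighbour, 1 row per list; filled circles passed an adjusted p under 0.05 (edgeR), bars are list medians and stars are the neighbours themselves. CDC23 lies beside ANAPC13 and CDC27, while REEP2 lies at 0.67 above the median of its list (-0.35).

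GFRA3 (ENSG00000146013, minus strand, 138252380 to 138274621), the receptor for artemin on sensory neurons, had 0 counts in all 5 libraries. A count of 0 allows up to 3 counts, which is 0.117 to 0.156 CPM depending on the library, for counting error only. No comparison was possible. Of 8 genes of GDNF-type ligands and receptors, 3 were tested, with 0 lower and 0 higher (2 lower and 0 higher at an unadjusted p) and a median of -0.49. The most abundant were its ligand ARTN (1.43, SE 0.63, edgeR adjusted p = 0.331) and GDNF (-0.49, SE 0.19, edgeR adjusted p = 0.2406).

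Levels were compared between genes as CPM per kb of the canonical transcript. In siCtrl they were 133 ± 2.03 for CTNNA1, 115 ± 8.05 for HSPA9, 72.0 ± 5.97 for ETF1 and 64.6 ± 13.9 for KIF20A (SD, n = 3). A lower group followed, with 17.9 ± 0.0737 for CDC23, 14.3 ± 0.403 for FAM53C and 12.9 ± 1.48 for KDM3B, and then 8.50 ± 1.85 for CDC25C, 5.33 ± 2.25 for EGR1 and 3.08 ± 0.205 for REEP2 (SD, n = 3). The control libraries overlapped between ETF1 and KIF20A and between FAM53C and KDM3B, so that the order within these pairs is not set. They also overlapped between CDC25C and EGR1, but compared within each library CDC25C was the higher in all 5. EGR1 was above REEP2 in 3 of 5 libraries, and its lowest control (3.25) was close to the highest of REEP2 (3.24). The highest and lowest of these levels differed 43.3-fold. Counted over all annotated exon bases in place of the canonical transcript, ETF1, CTNNA1, KIF20A and HSPA9 overlapped and CDC23 no longer stood above KDM3B. On that measure CDC25C was above EGR1 in only 2 of 5 libraries. In siFAM53C the mean level of FAM53C was 4.4 ± 1.38 (SD, n = 2), between those of REEP2 (4.89 ± 0.214) and EGR1 (3.58 ± 1.63). The summed CPM of the 10 members was 1644, 1655 and 1665 in siCtrl and 1490 and 1491 in siFAM53C, most of it from HSPA9, CTNNA1 and ETF1.

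**Figure D4:**
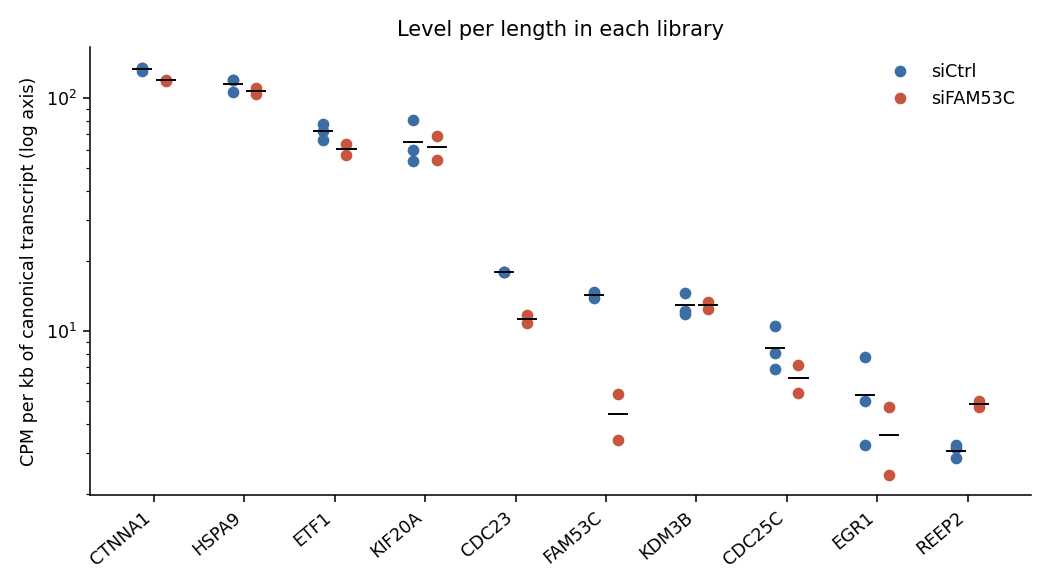
CPM per kb of canonical transcript (log axis) of the 9 detected neighbours and FAM53C, in order of the siCtrl mean; blue points are the 3 siCtrl and red points the 2 siFAM53C libraries, and lines are means. CTNNA1, HSPA9, ETF1 and KIF20A lie above the rest, and FAM53C drops from 14.3 to 4.4.

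The other genes of the stretch were examined in the same way. Another 11 genes with a row in the table overlap the stretch from the first to the last member, of which 3 were tested, with 0 lower and 0 higher (also 0 at an unadjusted p, while DESeq2 gave an adjusted p for BRD8 alone and did not call it). BRD8, a bromodomain protein of the NuA4 acetyltransferase complex, starts head to head with KIF20A and had 95.6 CPM in siCtrl and 107 in siFAM53C (0.16, SE 0.17, edgeR adjusted p = 0.7103). It is the nearest tested protein-coding gene before FAM53C outside the members. On the other side this is LRRTM2, a neuronal adhesion protein inside CTNNA1, with 9 to 25 counts per library (0.33, SE 0.64, edgeR adjusted p = 0.8582). Within 1 Mb beyond each end, 18 genes were tested, with 0 lower and 0 higher at the main settings (1 lower and 3 higher at an unadjusted p) and a median of 0.13. Without siCtrl replicate 3, STING1, a sensor adaptor of innate immunity, was called higher (0.58, edgeR adjusted p = 0.02837). Of these 18, 2 were lower and 8 higher in both siFAM53C libraries than in every control, beside the 18.8% and 16.7% given above.

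**Figure D5:**
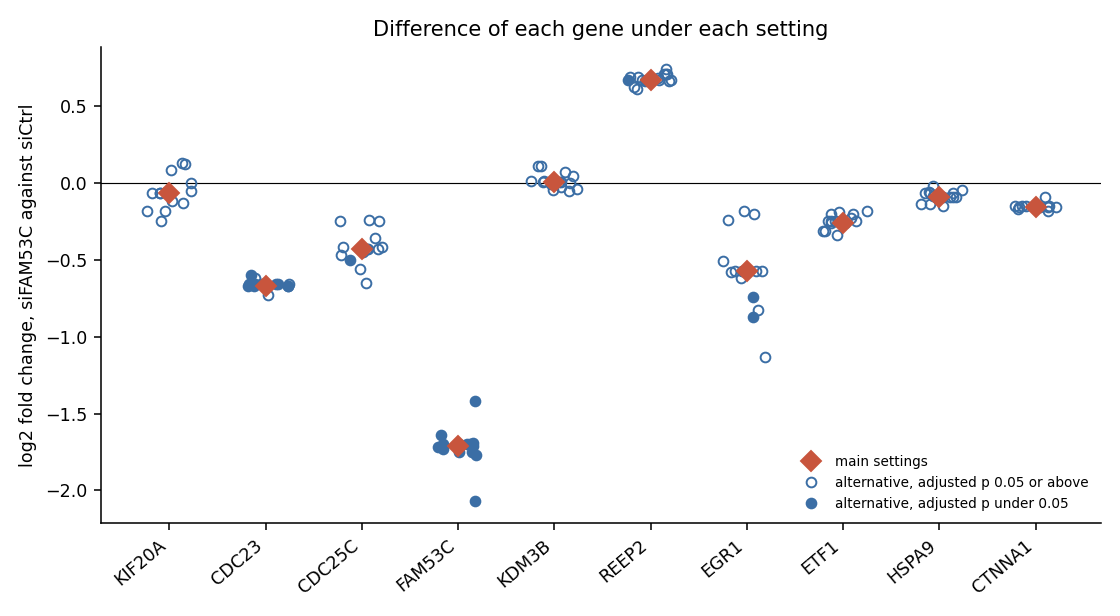
Log2 fold change (vertical axis) of FAM53C and the 9 tested neighbours with the main settings (diamonds) and under each alternative (circles, filled where the adjusted p was under 0.05). CDC23 stays between -0.73 and -0.60 and REEP2 between 0.61 and 0.74, whereas KIF20A and KDM3B lie on both sides of 0 and EGR1 spreads from -1.13 to -0.18.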

How the data were processed

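RNA of 3 siCtrl and 2 siFAM53C libraries was measured. The authors trimmed reads with cutadapt (version 2.10), aligned them to hg38 with HISAT2 set to reverse strandedness and counted them per gene with featureCounts, per the submitters' processing notes and the study's methods. The deposited values are raw counts per Ensembl gene. The annotation release and whether featureCounts used strand are not given in the sources used here. Totals were 19260124 to 25615415 counts, and intervals and floors cover counting error only.

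Genes were filtered with filterByExpr (minimum count 10, minimum total 15), scaled by TMM and tested with edgeR 4.0.16 (R 4.3.3) by the quasi-likelihood test with robust estimation, condition as the only term and Benjamini-Hochberg adjustment over all 15341 genes, at a threshold of 0.05. The SE is the log2 fold change divided by the square root of F. The script was tested on simulated data. Alternatives were DESeq2 1.42.0, limma-voom (3.58.1), other scaling and filters, a replicate block, windows of other width and leaving out each library.

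Positions and lengths came from GENCODE release 44, and promoter windows from RefSeq (GRCh38.p14). Genes named are FAM53C, the members, the nearest tested protein-coding genes that are not members, genes of the stretch and its 1 Mb flanks past the threshold, and of each partner list those past the threshold or otherwise the 2 most abundant per length. The members and lists were chosen with earlier results of these data known, and support nothing by themselves.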

Additional observations from a re-analysis of the deposited data

How the results depend on the processing

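Of 160 alternative log2 fold changes of the members and FAM53C, 141 kept their direction and side of the threshold. Another 4 (CDC23, with a library left out) fell short of it and 6 newly passed it. The 160 include the main fit read at an unadjusted p, where the fold changes could only repeat the main ones. FAM53C was lower and called in every alternative, from -2.07 to -1.42. The sign turned for KIF20A with total counts (0.00049) and the block by title numbers (0.12), with -0.25 to 0.13 when 1 library was left out, and for KDM3B with the block by column numbers (-0.029) and the term for the library split (-0.01), with -0.051 to 0.11 when 1 library was left out. The cause was not tested.

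The term for the split and the fit without robust estimation were chosen after seeing the data. Lower and higher genes over the whole table, 533 and 75 with the main settings, were 968 and 316 with DESeq2, 961 and 375 unfiltered, 1607 and 1014 by unadjusted p, and 1636 and 1037 with that term. With total counts 121 were higher, and the median log2 fold change of all genes went from 0.016 to 0.087. Leaving out 1 library gave 157 to 886 lower and 6 to 414 higher. Among the members, 3 passed as lower and 1 as higher with that term, 1 was higher with DESeq2 and 1 by unadjusted p, and leaving out 1 library gave 0 to 1 lower. Of the partner genes, 5 lower and 0 higher with the main settings, 8 and 2 passed with DESeq2, 1 and 1 with total counts, 10 and 3 with no filter, 16 and 6 by unadjusted p, and 23 and 5 with that term. Only 3 were lower with limma-voom and 2 without robust estimation. Leaving out 1 library gave 0 to 6 lower and 0 to 3 higher.

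Replicate numbers differ between the titles and the columns, and 2 pairs are too few to establish a pairing from the data. Across genes, deviations from the condition means correlated at 0.169 and -0.285 for equal title numbers and at 0.169 and 0.371 for equal column numbers. The value of 0.169 is the same pair in both. The 2 siFAM53C libraries deviate by equal and opposite amounts, so these values are not independent. With a replicate block by title numbers 327 genes were higher, and 2 partner genes were higher. With a replicate block by column numbers, 1298 genes were lower and 602 higher, 2 members (CDC23 and EGR1, the latter at -0.87) were lower, and 17 partner genes were lower and 4 higher. In the 1 Mb flanks, STING1 was called higher with the title block, CXXC5 higher and SPOCK1 lower with the column block, and these 3 with KLHL3 (higher) and MATR3 (lower) with the term for the library split. Depth limits REEP2, with 128 to 267 counts per library, and GFRA3, with none.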

Other observations

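Chromosome 5 as a whole had 714 tested genes, FAM53C and the tested neighbours included. Of these, 4.62% were lower and 0.42% higher in siFAM53C, with a median log2 fold change of -0.07. Over all tested genes 3.47% were lower and 0.489% higher, with a median of 0.02.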
